A study of Homo sapiens with 48 samples.

Results

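The 10 glycolytic enzyme genes HK2, GPI, PFKP, ALDOA, TPI1, GAPDH, PGK1, ENO1, PKM and LDHA were followed through ribosome-protected fragments (RPFs) and total cytoplasmic RNA of SW480 cells, an established human colorectal cancer line. They were found in the tables by gene symbol. All 10 were among the 11947 genes of the total RNA table and 9 were among the 11145 genes of the RPF table, and ALDOA was not analysed here in RPFs. The cells had been transduced with a doxycycline (DOX) inducible shRNA in the LT3-GEPIR vector, either non-targeting (shCTRL), against EIF2B1 (shEIF2B1) or against EIF2B4 (shEIF2B4), which encode the α and δ subunits of the translation factor eIF2B. Culture lasted 5 days with either DMSO (-DOX) or DOX at 1 µg/ml (+DOX), and the 4 replicates come from separate weeks. This gave 24 lysates and 48 libraries, with 4 libraries in each of 6 groups per measure. All 3 lines carry the vector and express a hairpin when induced, so shCTRL shows what DOX and a hairpin change without a target. Values are the authors' regularised log2 normalised counts. No read counts were given, so depth is unknown for every value.

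Glycolysis converts glucose into pyruvate in the cytoplasm and yields ATP and NADH. Hexokinase 2 (HK2) traps glucose as glucose 6-phosphate, GPI converts this to fructose 6-phosphate, and platelet phosphofructokinase (PFKP) carries out the committed step. Aldolase A (ALDOA) splits the sugar, TPI1 interconverts the products, and GAPDH oxidises them. PGK1 and pyruvate kinase (PKM) make ATP, enolase 1 (ENO1) works between them, and lactate dehydrogenase A (LDHA) reduces pyruvate to lactate, which restores NAD+. Cancer cells often run this route at a high rate even with oxygen present. eIF2B recharges eIF2, which brings the initiator tRNA to the ribosome, and loss of its activity lowers general initiation and raises translation of ATF4.

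The members differ in codon composition, and the RPF results are set against it further on. Composition was taken from the transcript counted for each gene, in GENCODE v29 on GRCh38. The share of codons ending in G or C (GC3) was 46.4% in LDHA, the lowest of the 10, 55.0% in PGK1, 65.7% in ENO1, 66.3% in TPI1, 66.5% in PKM, 71.2% in HK2, 71.9% in GAPDH, 73.6% in ALDOA, 75.1% in PFKP and 75.2% in GPI. The median of all genes with a coding sequence (CDS) was 59.1%, so LDHA and PGK1 lay below it and the other 8 above it. The beginning of the CDS is shown for 3 members, 90 bases each, with the third base of every codon in capitals, because these span the range: LDHA at the low end, GAPDH as the most abundant, and GPI at the high end.
LDHA: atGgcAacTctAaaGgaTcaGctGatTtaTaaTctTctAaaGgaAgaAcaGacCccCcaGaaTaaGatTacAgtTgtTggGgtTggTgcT
GAPDH: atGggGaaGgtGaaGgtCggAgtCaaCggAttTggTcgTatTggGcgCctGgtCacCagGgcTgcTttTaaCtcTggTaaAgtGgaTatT
GPI: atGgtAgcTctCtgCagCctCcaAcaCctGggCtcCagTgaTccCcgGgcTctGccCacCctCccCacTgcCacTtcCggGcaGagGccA
Of these 30 codons, 11 end in G or C in LDHA, 16 in GAPDH and 21 in GPI.

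The start codon of LDHA lies at chr11:18396843-18396845 on the plus strand, that of GAPDH at chr12:6534833-6534835 on the plus strand, and that of GPI at chr19:34364910-34364912 on the plus strand. HK2 lies at chr2:74833981-74893359, PFKP at chr10:3066333-3137712, ALDOA at chr16:30064164-30070457 and TPI1 at chr12:6867119-6870948, all on the plus strand, and ENO1 at chr1:8861000-8879250 and PKM at chr15:72199029-72231822 on the minus strand. The counted transcript was not always that with the longest CDS of its gene. That of LDHA has 274 codons where the longest coding transcript of the gene has 361, that of PGK1 has 389 against 417, and that of TPI1 has 249 against 286. RPF reads from parts of a gene outside the counted transcript do not enter its RPF value.

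Most of the members were among the most abundant mRNAs of uninduced shCTRL cells. On the log2 scale per kb of CDS, the RPF level of GAPDH was 15.55 ± 0.14 (SD, n = 4), rank 2 of 10847 genes. TPI1 followed at 14.03 ± 0.14, LDHA at 13.49 ± 0.34, ENO1 at 13.28 ± 0.17, PKM at 12.88 ± 0.098, PGK1 at 11.90 ± 0.21 and GPI at 11.52 ± 0.061 (SD, n = 4 each). PFKP at 8.16 ± 0.099 was nearer the median of all genes, 6.56, and HK2 at 6.14 ± 0.17 lay below it. Along this order the weekly values of neighbours did not overlap except for LDHA and ENO1, of which LDHA was higher in 3 of 4 weeks.

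In total RNA, per kb of transcript, the order was GAPDH (13.94), LDHA (13.07), TPI1 (12.13), ENO1 (11.69), ALDOA (11.34), PKM (10.73), PGK1 (9.86), GPI (9.43), PFKP (7.02) and HK2 (5.27), against a median of 6.38 over all genes, and no neighbours overlapped. HK2 and PFKP were thus the lowest of the members by both measures, while GPI, whose step lies between theirs, was well above the median. Levels of other isoenzymes of these steps are not given here, so these values do not describe the steps as a whole. Translational efficiency (log2 TE) was the log2 RPF value less the log2 total RNA value of a lysate, and was highest for GPI (1.83 ± 0.13) and PKM (1.61 ± 0.12) and lowest for HK2 (-0.20 ± 0.17) and LDHA (-0.25 ± 0.24; SD, n = 4 each). The library medians of log2 TE in this group were -0.91 to -0.87, so every member measured in both tables lay above the median gene. Unlike the levels above, log2 TE was not divided by length. Its order between genes thus also depends on the share of a transcript that is CDS, 2751 of 5772 nt in HK2, 822 of 1310 in LDHA, 1593 of 2318 in PKM and 1707 of 2036 in GPI.

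The response to a knockdown is the DOX change within that line less the DOX change within shCTRL. It was estimated with limma, with weeks as blocks, and a gene was called where the p adjusted over the whole table was under 0.1. EIF2B1 fell in shEIF2B1 cells, by 0.53 in RPFs (log2; adjusted p = 0.0109) and by 0.67 in total RNA (adjusted p = 0.0263). EIF2B4 fell by 0.49 in total RNA of shEIF2B4 cells (adjusted p = 0.0634), and its RPF response of -0.48 was not called (adjusted p = 0.236). Of the colonic epithelial markers, EPCAM, KRT8, KRT18 and KRT19 were high in every library and CDX2 was listed, CDH1 was low (4.11 to 6.74 in RPFs, 3.88 to 5.16 in total RNA), and CDH17, VIL1, CDX1 and LGALS4 were in neither table used here. Of the markers of leukocytes, endothelium and fibroblasts only CD68 was listed. RPF values of uninduced shEIF2B4 cells ran lower, with a median difference from shCTRL of -0.13 over all genes.

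LDHA was the member that fell upon depletion of eIF2Bα. Its log2 RPF values in uninduced shEIF2B1 cells were 13.26, 13.51, 13.27 and 13.51 in weeks 1 to 4, and 12.47, 12.73, 12.54 and 12.86 with DOX. All 4 induced values lay below all 4 uninduced ones, and the weekly change was even, from -0.78 to -0.64. In shCTRL the values were 12.73, 13.46, 13.17 and 13.46 without DOX and 13.06, 12.76, 13.18 and 13.49 with it. These overlapped, since LDHA was 0.32 higher in week 1, 0.71 lower in week 2 and within 0.03 in weeks 3 and 4.

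With the shCTRL change subtracted, LDHA RPFs fell by 0.65 (log2, a change of -36.1%; SE 0.18, limma adjusted p = 0.0165), below zero in 4 of 4 weeks, at -1.10, -0.08, -0.73 and -0.67. It was 1 of 9 members called in this comparison. Of all genes, 27.3% were called in either direction and 15.3% as lower, so a single call among 9 is no more than the table as a whole gives. The LDHA call was lost without week 1 (-0.49, adjusted p = 0.119) and with the trend on CDS GC content removed (-0.46, adjusted p = 0.12). Over its 12 alternatives the adjusted p ranged from 1.49e-06 to 0.621, the highest without the replicate block.

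The other members moved less. PGK1 RPFs in shEIF2B1 cells were 11.996, 12.30, 12.15 and 12.16 without DOX and 11.75, 11.58, 11.86 and 11.49 with DOX, again without overlap. Its response was -0.34 (95% interval -0.73 to 0.05; adjusted p = 0.212). ENO1 went from 13.71, 13.84, 13.72 and 13.71 to 13.33, 13.09, 13.27 and 13.01, also without overlap, with a response of -0.33 (-0.71 to 0.05; adjusted p = 0.214). Both were below zero in 4 of 4 weeks, but shCTRL had moved the same way in weeks 2 to 4, by -0.73 to -0.27 for ENO1 and by -0.64 to -0.15 for PGK1, and the responses did not pass the test.

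PKM, which makes pyruvate, had an RPF response of -0.17 to shEIF2B1 (95% interval -0.52 to 0.19), PFKP -0.14 (-0.47 to 0.20), GPI -0.11 (-0.39 to 0.17), HK2 -0.06 (-0.53 to 0.40) and TPI1 0.00 (-0.26 to 0.25). GAPDH was the only member with a value above zero, at 0.10 (-0.31 to 0.51; adjusted p = 0.757). The median of the 9 members was -0.14, against -0.01 over all genes, and 1 of 9 values was positive, against 48.6% of all genes.

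GAPDH, the member with the highest RPF level and a common loading control, moved alike in the 3 lines. Its RPF values went from 15.59, 15.38, 15.71 and 15.54 to 15.67, 14.60, 15.21 and 15.22 in shCTRL, from 15.46, 15.28, 15.40 and 15.21 to 15.52, 14.93, 15.05 and 14.72 in shEIF2B1, and from 15.39, 15.28, 15.53 and 15.14 to 15.55, 14.81, 14.97 and 14.91 in shEIF2B4. In all 3 lines the value was higher with DOX in week 1 and lower in weeks 2, 3 and 4. The shCTRL change was -0.38, and the responses, which subtract it, were positive. With no shCTRL correction the shEIF2B1 value was -0.28 (adjusted p = 0.0487).

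Upon depletion of eIF2Bδ no member was called in RPFs, where 2.75% of all genes were called. None of the 9 had an unadjusted p under 0.05, while 1749 of all 11145 genes had. LDHA was again the lowest, at -0.34 (SE 0.22, 95% interval -0.79 to 0.11; adjusted p = 0.454), and below zero in 4 of 4 weeks. Its values in shEIF2B4 were 12.36, 13.29, 13.36 and 13.31 without DOX and 12.38, 12.55, 12.71 and 12.97 with DOX. The uninduced library of week 1 stood far below the other 3, so the groups overlapped, and the value was lower with DOX in weeks 2 to 4. Without week 1 the response was -0.36 (adjusted p = 0.224). The remaining 8 members lay between -0.07 and 0.10, and the median of the 9 was 0.00, against -0.02 over all genes.

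The RPF responses to the knockdowns were compared directly. No member was called (0 of 9 at an adjusted p under 0.1), and of all genes 0.00897% were, which is 1 gene. An unadjusted p under 0.05 was found for 0 of 9 members and for 713 of all 11145 genes. The shEIF2B1 value was the lower for all 9 members, and the higher for 47.8% of all genes. It was the lower for 5 of 9 members without week 4, 7 of 9 without week 1 and 8 of 9 without week 3. With each library centred on its median it was the lower for 7 of 9. The difference was -0.30 for LDHA (95% interval -0.72 to 0.11), -0.30 for ENO1 (-0.69 to 0.09), -0.27 for PGK1 (-0.70 to 0.15) and -0.01 for GAPDH (-0.40 to 0.39). Both responses use the same shCTRL libraries, which cancel in this comparison. The intervals leave room for a difference of up to 0.72 on the log2 scale in LDHA.

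In total RNA none of the 10 members was called for shEIF2B1, where 3.47% of all genes were called. An unadjusted p under 0.05 was found for 1 member and for 1825 of all 11947 genes. LDHA was again lowest. Its total RNA values in shEIF2B1 were 13.52, 13.70, 13.45 and 13.53 without DOX and 13.09, 12.82, 13.02 and 13.08 with DOX, without overlap, and the response was -0.43 (SE 0.15, 95% interval -0.74 to -0.12; adjusted p = 0.167). The weekly values were -0.63, -0.34, -0.35 and -0.41. Without week 2, where shCTRL itself was 0.54 lower with DOX, LDHA at -0.46 (limma adjusted p = 0.0387) and ENO1 at -0.38 (limma adjusted p = 0.0894) were called. Of all 11947 genes 645 were called without week 2. PGK1 followed at -0.33 (-0.69 to 0.02), and GAPDH was again the exception at 0.08 (-0.20 to 0.37). The median of the 10 was -0.21, against 0.00 over all genes, and 9 of 10 were negative.

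For shEIF2B4 no member was called in total RNA either (5.4% of all genes were). All 10 values were negative, with a median of -0.20 against 0.00 over all genes. An unadjusted p under 0.05 was found for 2 of 10 members and for 2057 of all 11947 genes. GPI had the largest change and missed the threshold by little. Its values in shEIF2B4 were 10.57, 10.82, 10.96 and 10.42 without DOX and 10.43, 10.20, 10.19 and 10.27 with DOX, in shCTRL 10.46, 10.51, 10.60 and 10.26 without and 10.51, 10.37, 10.66 and 10.20 with it. In shEIF2B4 only week 1 with DOX, at 10.43, reached above the lowest uninduced value, and shCTRL overlapped throughout. Before induction GPI was 0.24 higher in shEIF2B4 than in shCTRL (limma adjusted p = 0.128), and with DOX the means were 10.27 and 10.43. The response was -0.40 (SE 0.13, 95% interval -0.67 to -0.13; adjusted p = 0.104), at -0.20, -0.47, -0.84 and -0.09 by week. Leaving out week 3 gave -0.25, and over the 4 weeks left out in turn the value ran from -0.50 to -0.25 with an adjusted p of up to 0.38. It passed with the lowest 25% of genes left out (adjusted p = 0.099), with each library centred on its median (-0.42, adjusted p = 0.0831) and with no shCTRL correction (-0.42).

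ALDOA, measured in total RNA alone, was 11.77, 11.99, 12.08 and 11.77 in shEIF2B4 without DOX and 11.85, 11.76, 11.71 and 11.67 with it, a response of -0.23 (-0.45 to -0.02; adjusted p = 0.241). Its response to shEIF2B1 was -0.20 (-0.45 to 0.04). LDHA in shEIF2B4 was 13.19, 13.53, 13.41 and 13.48 without DOX and 13.03, 12.91, 13.03 and 13.16 with DOX. These did not overlap, and the response was -0.25 (-0.55 to 0.05; adjusted p = 0.381). The direct comparison of the knockdowns in total RNA called none of the 10 members (0.1% of all genes). Its largest value was that of GPI, 0.33 higher in shEIF2B1 (95% interval 0.04 to 0.61, limma adjusted p = 0.345). GPI was the 1 member at an unadjusted p under 0.05, as were 1528 of all 11947 genes.

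Log2 TE gave no call among the 9 members for shEIF2B1 (7.1% of all genes called) or for shEIF2B4 (0.0923% of all genes). At an unadjusted p under 0.05 were 0 of 9 members and 2193 of 10836 genes for shEIF2B1. For shEIF2B4 these were 1 of 9 members and 1848 of 10836 genes. After shEIF2B1 the values ran from -0.22 for LDHA (95% interval -0.52 to 0.08) to 0.17 for HK2, with a median of 0.01. After shEIF2B4, 8 of 9 were positive, with a median of 0.20 against -0.01 over all genes, led by GPI at 0.33 (0.00 to 0.65; adjusted p = 0.292) and HK2 at 0.28 (-0.06 to 0.62), while LDHA was at -0.09 (-0.39 to 0.22). The direct comparison of the knockdowns in log2 TE called no member (0% of all genes, which is 0 genes, 665 of all genes and 1 of 9 members at an unadjusted p under 0.05), and the shEIF2B1 value was the lower for all 9. It was the higher for 48.8% of all genes, and the lower for 8 of 9 members without week 1. The largest difference was that of GPI, -0.37 (95% interval -0.69 to -0.04; adjusted p = 0.80). LDHA RPFs were called as lower after shEIF2B1, while the LDHA responses in total RNA (-0.43) and in log2 TE (-0.22) were both negative and not called.

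**Figure D1:**
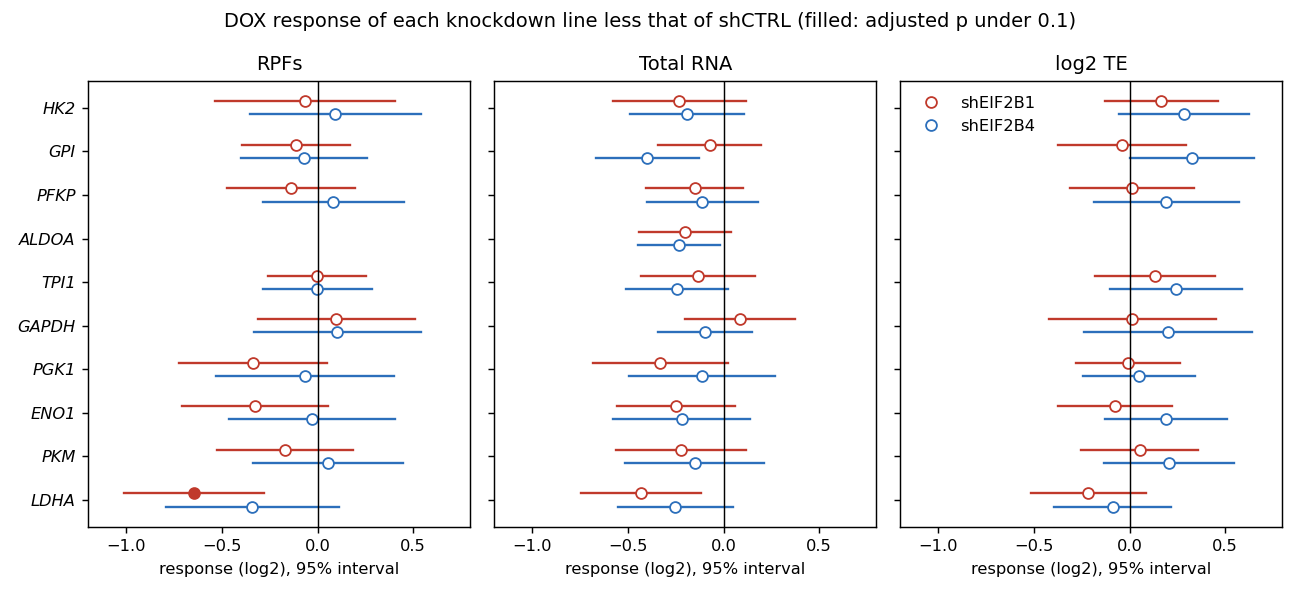
Responses (log2, horizontal axis) of each member to shEIF2B1 and shEIF2B4 in RPFs, total RNA and log2 TE, with 95% intervals, filled where the adjusted p was under 0.1. The single filled point is LDHA RPFs after shEIF2B1 at -0.65, and in total RNA after shEIF2B4 all 10 points lie left of zero.

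The RPF responses to shEIF2B1 tended to be lower in members of lower GC3, but not in strict order. LDHA and PGK1, with the lowest GC3, had the lowest values. ENO1, at a GC3 of 65.7%, was level with PGK1 (-0.33 and -0.34). TPI1 and PKM, close to ENO1 in GC3, were at 0.00 and -0.17. GPI and PFKP, with the highest GC3, were at -0.11 and -0.14, below GAPDH at 0.10. Across the 9 members Pearson's r between GC3 and the response was 0.84 (Spearman's rho 0.67), and without LDHA it was 0.60 (0.52). The same relation held over all 10847 genes with a CDS, with r = 0.61 and rho = 0.65, and over all genes r was 0.52 for shEIF2B4. It was not particular to RPFs: in total RNA after shEIF2B1 r over the members was 0.765 (0.604 without LDHA), against 0.196 over all genes. In total RNA after shEIF2B4 it was -0.064. In log2 TE it was 0.589 after shEIF2B1 and 0.918 after shEIF2B4, and without LDHA 0.069 and 0.794. These are descriptions across genes of the same libraries, which share their base composition effects, and the part of composition in the LDHA value was tested only by the removal of the CDS GC trend given above.

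The members were also set beside the genes of their own GC3 range. With all genes divided by GC3 into 10 bins of equal size, all 9 members had an RPF response to shEIF2B1 below the median of their bin, by a median of 0.29. LDHA at -0.65 compares with a bin median of -0.19, ENO1 at -0.33 with 0.12, PGK1 at -0.34 with -0.03, and GPI at -0.11 and PFKP at -0.14 with 0.16. GAPDH at 0.10 was nearest to its bin median of 0.16, and GAPDH and TPI1 lay within the middle 50% of their bins. In RPFs after shEIF2B4 all 9 were also below, but by a median of only 0.04, and in total RNA 9 of 10 members were below for shEIF2B1 and 10 of 10 for shEIF2B4, by medians of 0.23 and 0.15. In log2 TE 6 of 9 were below after shEIF2B1, and 0 of 9 after shEIF2B4. These counts share libraries and shCTRL and were not tested.

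The effect of DOX without a target was read from shCTRL. In RPFs no member was called over the 4 weeks (9.85% of all genes were), 8 of 9 values were negative, and GAPDH was lowest at -0.38 (SE 0.16, 95% interval -0.72 to -0.04; adjusted p = 0.172). Week 1 went against the other weeks, with 8 of 9 members higher with DOX, by 0.08 to 0.56, and TPI1 the exception. Without week 1, GAPDH (-0.53), ENO1 (-0.43), GPI (-0.32), PGK1 (-0.31) and PFKP (-0.28) were called, with adjusted p between 0.00661 and 0.0367, where 3526 of all genes were called. In total RNA none of the 10 was called (4.44% of all genes), and PKM was highest at 0.24 (0.02 to 0.45; adjusted p = 0.211), higher with DOX in 3 of 4 weeks. Without week 2 PKM was called (0.38, limma adjusted p = 0.0557), where 166 of 11947 genes were called. In log2 TE none of the 9 was called (0.388% of all genes), and GAPDH was lowest at -0.47 (SE 0.14, 95% interval -0.76 to -0.18; adjusted p = 0.156).

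The lines were also compared before induction. In RPFs of uninduced shEIF2B1 against shCTRL, TPI1 was lower by a log2 difference of -0.21 (adjusted p = 0.039) and GAPDH by -0.22 (adjusted p = 0.0698), 2 of 9 where 54.1% of all genes were called. With the CDS GC trend removed neither was called, and HK2 (0.26) and GPI (0.22) were called as higher, where 1687 of 10847 genes were called. In uninduced shEIF2B4 only PKM was called, at -0.33 (adjusted p = 0.0824; 13.9% of all genes), and 7 of 9 members had an unadjusted p under 0.05, as had 3265 of all 11145 genes. Of all genes 32.2% had a positive value. All 9 values were negative, with a median of -0.27 beside -0.13 over all genes, among them PGK1 at -0.33, PFKP at -0.31 and HK2 at -0.29. In total RNA none of the 10 was called for shEIF2B1 (1.4% of all genes, 4 members and 1569 of all 11947 genes at an unadjusted p under 0.05) or for shEIF2B4 (2.32%, 1 member and 1890 genes). GPI was 0.21 and 0.24 higher in the 2 lines (adjusted p = 0.121 and 0.128).

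With the week mean removed, most members ran together over the 24 libraries of a measure. In RPFs, PGK1 had a correlation of 0.98 with the mean of the other members, ENO1 0.97 and PFKP 0.91, while PKM was the least alike at 0.55. In total RNA ENO1 had 0.97 and PFKP 0.88, and GAPDH, at -0.01, did not follow the others. Among the genes most like the mean of the members were SF3A1, MCM5, PSMD4 and MCM7 in RPFs (r from 0.96 to 0.97) and EIF3B, NOC2L, CCT3, MCM7 and NASP in total RNA (r from 0.94 to 0.95). These share libraries and composition with the members, and no p is given.

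The genes around glycolysis were counted in 6 lists, of which 69 genes were measured in RPFs, 68 in total RNA and 67 in both. After shEIF2B1, 24 of the 69 were called in RPFs, 12 higher and 12 lower (34.8%, against 27.3% of all genes), and after shEIF2B4 7 were called, 6 of them higher (10.1%, against 2.75%). In total RNA 5 of 68 were called after shEIF2B1 and 7 of 68 after shEIF2B4 (7.35% and 10.3%, against 3.47% and 5.4% of all genes). In log2 TE 5 of 67 and 1 of 67 were called (7.46% and 1.49%, against 7.1% and 0.0923%).

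TXNIP, which restrains glucose transporters at the membrane and is induced by sugar phosphates through MondoA and ChREBP, rose in both lines and by both measures. Its total RNA values were 8.66, 8.63, 8.70 and 8.70 in uninduced shCTRL and 8.79, 9.30, 8.66 and 8.42 with DOX. In shEIF2B1 they went from 9.19, 8.88, 8.99 and 8.91 to 10.15, 9.68, 10.37 and 9.98, and in shEIF2B4 from 8.91, 8.89, 8.71 and 8.96 to 10.65, 10.75, 10.42 and 10.19. All induced knockdown libraries lay above all others. The responses were 0.93 for shEIF2B1 (SE 0.21, adjusted p = 0.0216) and 1.52 for shEIF2B4 (SE 0.17, adjusted p = 1.43e-05) in total RNA, and 1.06 and 1.78 in RPFs (adjusted p = 0.00661 and 0.000468), above zero in 4 of 4 weeks in each. The shEIF2B1 call in total RNA was lost without week 1, 3 or 4, with an adjusted p of up to 0.225.

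ARRDC4, a related arrestin with the same inducer, rose in total RNA by 0.64 after shEIF2B1 (limma adjusted p = 0.0295) and by 0.68 after shEIF2B4 (limma adjusted p = 0.00117), in 4 of 4 weeks each, and the former was lost without week 1, 3 or 4. In RPFs ARRDC4 was low, at 3.10 to 3.33 in uninduced shCTRL, where the library medians were 6.98 to 7.03. Of 13 transporters in total RNA, 2 fell and 1 rose after shEIF2B4, where 5.4% of all genes were called. SLC2A1 (GLUT1) fell by 0.43 in total RNA (SE 0.10, adjusted p = 0.0238) and SLC2A3 (GLUT3) by 0.38 (SE 0.10, adjusted p = 0.0461), while SLC2A10 rose by 0.51 (adjusted p = 0.0659), a call lost without week 1, 2 or 3, without the replicate block and with all 24 libraries in 1 fit. SLC2A1 was 12.53, 12.66, 12.87 and 12.67 in uninduced shEIF2B4 and 12.24, 12.28, 12.36 and 12.30 with DOX, without overlap. The SLC2A1 call was lost without week 3 or 4 and that of SLC2A3 without week 1, 2 or 4. After shEIF2B1 their total RNA responses were -0.24 and -0.27 and were not called, and in RPFs neither transporter was called after either knockdown. The difference between the knockdowns was not called for SLC2A1 (0.18, adjusted p = 0.53) or SLC2A3 (0.11, adjusted p = 0.609).

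Of 12 transporters in RPFs, 4 were called higher and none lower after shEIF2B1, where 27.3% of all genes were called. The largest responses were those of SLC2A10 (1.14, adjusted p = 0.00379), SLC2A8 (0.61) and SLC2A6 (0.54), all of the glucose transporter family, and SLC2A10 was also called after shEIF2B4 (0.97, adjusted p = 0.0823), a call lost without week 2, 3 or 4 (adjusted p of up to 0.51), without the replicate block and with the CDS GC trend removed. The SLC2A6 mean in shEIF2B1 was 7.96 without and 8.00 with DOX, while that in shCTRL was 8.59 and 8.09, and with no shCTRL correction its value was 0.04 and not called. With the CDS GC trend removed it was 0.19 and not called. The SLC2A8 call was lost in 3 of 11 alternatives, over which its value ran from 0.25 to 0.70. Of 13 genes that control the pathway, MLXIPL, which encodes ChREBP, rose in RPFs by 0.96 after shEIF2B1 and by 1.17 after shEIF2B4 (adjusted p = 0.0115 and 0.0545) and was also called in log2 TE (0.72 and 1.09). MLXIPL was among the lowest 25% of genes by RPF level, so these values rest on a low level. The log2 TE call of MLXIPL after shEIF2B1 was lost without week 1, 3 or 4 (adjusted p of up to 0.242), that after shEIF2B4 without week 2, 3 or 4 (up to 0.48), and its RPF call after shEIF2B4 without week 3 or 4 (up to 0.513). The log2 TE calls were also lost with the CDS GC trend removed. HIF1A, the hypoxia factor that drives many of the members, fell by 0.80 in RPFs (SE 0.18, adjusted p = 0.00665) and by 0.43 in total RNA (adjusted p = 0.0759) after shEIF2B1. The total RNA call of HIF1A was lost without any 1 of the 4 weeks.

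**Figure D2:**
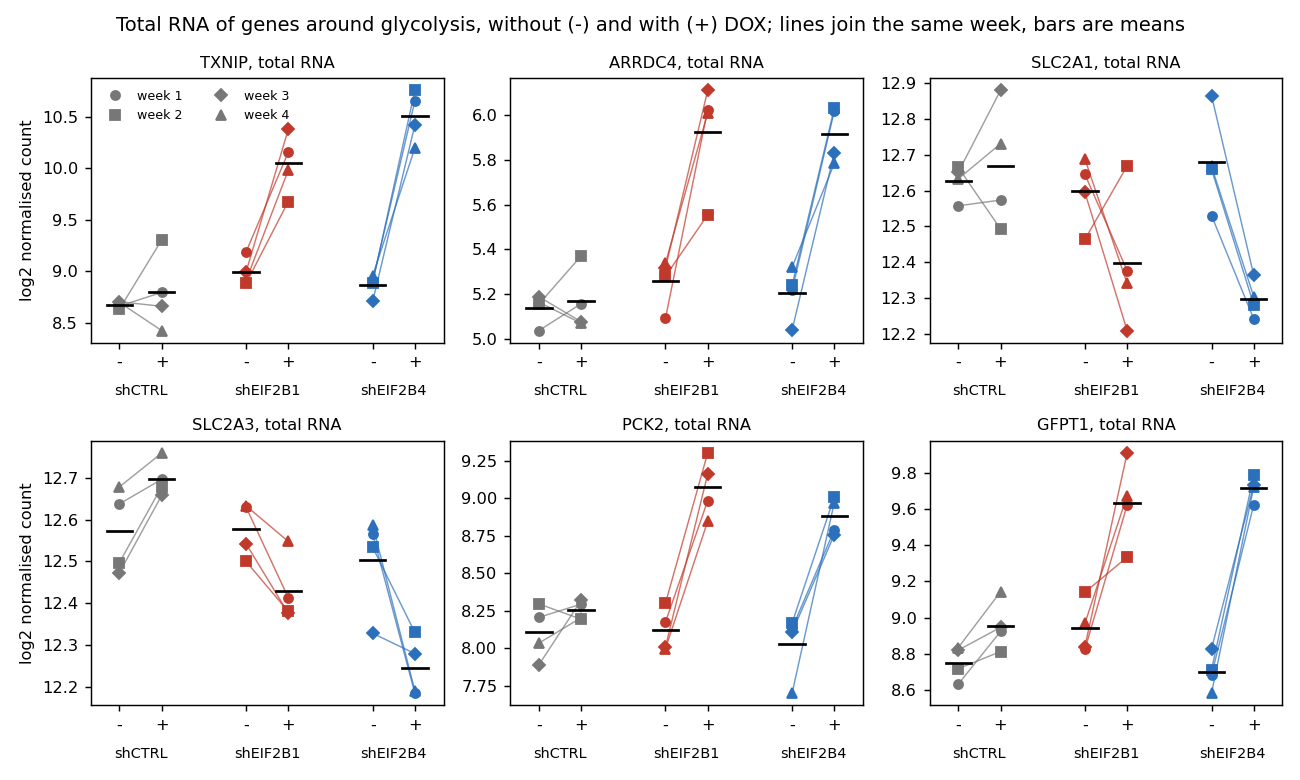
Log2 normalised counts in total RNA of TXNIP, ARRDC4, SLC2A1, SLC2A3, PCK2 and GFPT1 for each library without (-) and with (+) DOX in the 3 lines, with lines joining libraries of the same week and black bars for means. In shEIF2B4 TXNIP rises from 8.71 to 8.96 without DOX to 10.19 to 10.75 with DOX, and SLC2A1 drops to 12.24 to 12.36.

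Among 12 other glycolytic enzymes and isoenzymes in RPFs, 5 fell and 1 rose after shEIF2B1, where 15.3% of all genes were called as lower and 27.3% in either direction. The median of the 12 was -0.23, and none was called after shEIF2B4 or in total RNA. LDHB, the partner subunit of LDHA, fell by 0.70 (SE 0.18, adjusted p = 0.0119) and was also lower in log2 TE (-0.69, adjusted p = 0.0418), while its total RNA response was -0.01. LDHC (-1.10) and PGK2 (-0.96) also fell, but they are close copies of LDHA or LDHB and of PGK1 that are normally confined to testis, so RPF reads of the abundant genes may be counted on them and their values are uncertain. The RPF call of LDHB was lost without week 1, and its log2 TE call without week 1, 3 or 4 (adjusted p of up to 0.327).

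PCK2, the mitochondrial enzyme that makes phosphoenolpyruvate and a known ATF4 target, rose in RPFs by 1.05 after shEIF2B1 (SE 0.14, adjusted p = 7.22e-05) and by 0.99 after shEIF2B4 (adjusted p = 0.0018), and in total RNA by 0.81 and 0.71 (adjusted p = 0.00126 and 0.00556). Its total RNA values in shEIF2B1 went from 8.18, 8.30, 8.01 and 8.00 to 8.98, 9.30, 9.16 and 8.85, without overlap. Of 12 genes of pyruvate oxidation and gluconeogenesis in RPFs, 2 rose and 3 fell after shEIF2B1, where 27.3% of all genes were called. Those that fell included the pyruvate dehydrogenase subunits DLD (-0.66) and PDHX (-0.52). The DLD call was lost in 2 of 12 alternatives and that of PDHX in 1, and their values were as small as -0.36 and -0.29. DLAT fell after shEIF2B4 (-0.58, adjusted p = 0.0742), a call lost without week 2, 3 or 4.

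In the pentose phosphate pathway PGLS alone was called of 7 genes, higher by 0.54 in RPFs after shEIF2B1 (27.3% of all genes were called). Its value ran from 0.20 to 0.62 over 12 alternatives, and the call was lost in 2. Among 13 genes of glycogen and hexose entry, UGP2 (-0.66) and PGM2 (-0.44) fell and GALT (0.51) and PYGB (0.41) rose in RPFs after shEIF2B1, where 27.3% of all genes were called. The calls of UGP2 and GALT were each lost in 2 of 12 alternatives, and their values were as small as -0.32 and 0.35. The PGM2 call (limma adjusted p = 0.0912) was lost in 9 of its 12 alternatives, with an adjusted p of up to 0.347 over the weeks left out in turn. PYGB rose after shEIF2B4 (0.57, adjusted p = 0.0278), a call lost without week 2, 3 or 4. GFPT1, the entry enzyme of the hexosamine pathway that draws on fructose 6-phosphate, rose in total RNA by 0.81 after shEIF2B4 (SE 0.11, adjusted p = 0.000124) and by 0.49 after shEIF2B1 (adjusted p = 0.0906, lost without week 1, 3 or 4), and its RPF responses of 0.63 and 0.15 were not called.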

How the data were processed

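The values deposited by the authors are regularised log2 normalised counts from DESeq2, made separately for RPFs and total RNA. Total RNA reads had been aligned with Bowtie2 to a filtered set of protein-coding transcripts (GENCODE v38) and quantified with RSEM, RPF reads had been aligned to the most expressed transcript of each gene and counted on its CDS, and replicate 3 joined from 2 sequencing runs. No read counts were given, so depth is unknown and no counting interval can be given. Here, genes were fitted with limma 3.58.1 (R 4.3.3, lmFit and eBayes with a mean-variance trend) on replicate, shRNA, DOX and their product, over the 16 libraries of a knockdown line and shCTRL, 24 for the difference of the knockdowns, and the 8 libraries concerned for shCTRL alone or for uninduced lines. P-values are two-sided and adjusted by Benjamini-Hochberg over all genes of a table, with a threshold of 0.1 as in the study's methods, and measure only the spread between these replicates. Replicate numbers stand for weeks and were used as a block as in the study's design: same-numbered libraries had a mean correlation of 0.559 in RPFs and 0.183 in total RNA after group means were removed. Composition was computed from CDS in GENCODE v29 (GRCh38), an earlier release than the authors'. The fits were tested on simulated data. The members and gene lists were chosen with earlier results of these data known. All 10 members are named, and for each list and response at most the 3 called genes with the largest response are named. PYGB in RPFs after shEIF2B1 is given beyond these, and no alternatives are reported for that value. The alternatives in the closing section changed 1 choice at a time. For the genes most like the members, the 5 with the highest correlation were taken, and 1 of them and 1 sequence are not reported here.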

Additional observations from a re-analysis of the deposited data

Results flagged for a closer look

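LDHA RPFs responded to DOX differently in shEIF2B1 than in shCTRL (interaction of -0.646 on the log2 scale, limma adjusted p = 0.0165). In 11 of 168 groups of 4 libraries 1 library lay far from the others, where chance at 1 in 20 gives 8.4. In RPFs these were PFKP in shEIF2B4 with DOX in week 1 (9.383, nearest 8.941), ENO1 in uninduced shEIF2B1 in week 2 (13.841, nearest 13.716) and LDHA in uninduced shEIF2B4 in week 1 (12.359, nearest 13.293). In total RNA they were HK2 in uninduced shCTRL in week 4 (8.054, nearest 7.731), ALDOA in shEIF2B1 with DOX in week 2 (12.123, nearest 11.754), ENO1 in shEIF2B4 with DOX in week 4 (12.383, nearest 12.21) and PKM in shCTRL with DOX in week 2 (11.91, nearest 12.254). In log2 TE they were HK2 (-0.7, nearest -0.332) and PFKP (1.224, nearest 0.59) in shEIF2B4 with DOX in week 1, GAPDH in uninduced shCTRL in week 2 (0.498, nearest 0.756) and PGK1 in shEIF2B1 with DOX in week 4 (0.676, nearest 0.926).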

How the results depend on the processing

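Without the replicate block the members called in RPFs went from 1 to 0 for shEIF2B1, from 2 to 0 for uninduced shEIF2B1 and from 1 to 0 for uninduced shEIF2B4, and the cause was not tested for these or the changes below. Without it 50 genes of the whole RPF table were called for shEIF2B1. With no shCTRL correction 6 members were called in RPFs, 4 in total RNA and 1 in log2 TE for shEIF2B1, and 1 in RPFs and 4 in total RNA for shEIF2B4, where the whole tables had 5507 of 11145, 4104 of 11947, 1857 of 10836, 2655 of 11145 and 4112 of 11947 genes called. Values that changed sign there were GAPDH (-0.28 in RPFs for shEIF2B1, -0.27 for shEIF2B4; log2 TE -0.46 and -0.27), PFKP (-0.0654 in RPFs for shEIF2B4, log2 TE -0.15 for shEIF2B1), PKM (total RNA 0.0143 and 0.0842, log2 TE -0.022 for shEIF2B1) and PGK1 (log2 TE -0.0062 for shEIF2B4). With the CDS GC trend removed 0 members were called in RPFs for shEIF2B1, where 889 of 10847 genes were called. In uninduced shEIF2B1 1 was called in total RNA (132 of 11595 genes). There the 2 lower RPF calls gave way to 2 higher ones, where 1687 of 10847 genes were called. PFKP (RPFs -0.0294 for shEIF2B4, log2 TE -0.12 for shEIF2B1), PKM (RPFs -0.0037, log2 TE -0.0205), GAPDH (log2 TE -0.0487), PGK1 (log2 TE 0.0404) and LDHA (log2 TE 0.0803 for shEIF2B4) changed sign. With libraries centred, TPI1 RPFs (0.049 and 0.022) and PGK1 log2 TE (0.0286 for shEIF2B1) changed sign. In total RNA 1 member was then called for shEIF2B4 and 1 for uninduced shEIF2B4, where 643 and 242 of 11947 genes were. In RPFs of uninduced shEIF2B4 0 were called. For the latter 0 were also called with no mean-variance trend, with the lowest 25% of genes left out or at 0.05. With all 24 libraries in 1 fit 4 were called there, where 3497 of 11145 genes were. For uninduced shEIF2B1 RPFs, 1 was called at 0.05 (5070 of 11145 genes) or with all 24 libraries (4429 genes). Leaving out the lowest 25% gave 1 call in total RNA for shEIF2B4, where 559 of 8960 genes were called.

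Leaving out 1 week at a time, members called in RPFs ranged from 0 to 1 for shEIF2B1 (1 without week 2, 3 or 4). Of all 11145 genes 1529 to 2714 were called there. The range was 0 to 5 for shCTRL (5 without week 1, where 3526 genes were called). It was 0 to 2 for uninduced shEIF2B1 (2 without week 1, 5418 genes). For uninduced shEIF2B4 it was 0 to 4 (4 without week 1, 5305 genes). In total RNA it was 0 to 2 for shEIF2B1 (2 without week 2, 645 of 11947 genes). For shCTRL it was 0 to 1 (1 without week 2, 166 genes). For uninduced shEIF2B4 it was 0 to 2 (2 without week 3, 626 genes). In log2 TE it was 0 to 1 for shCTRL (1 without week 1, 621 of 10836 genes). RPF responses whose sign changed ranged for shEIF2B1 from -0.32 to 0.0479 (HK2), -0.0674 to 0.0606 (TPI1) and -0.0115 to 0.19 (GAPDH), and for shEIF2B4 from -0.0284 to 0.0324 (TPI1), -0.14 to 0.0431 (PGK1) and -0.10 to 0.0325 (ENO1). In total RNA for shEIF2B4 they ranged from -0.25 to 0.0347 (PFKP), -0.17 to 0.0198 (GAPDH) and -0.28 to 0.0331 (PKM). In log2 TE they ranged for shEIF2B1 from -0.13 to 0.0248 (GPI), -0.13 to 0.10 (PFKP), -0.0704 to 0.12 (GAPDH) and -0.0221 to 0.0058 (PGK1), and for shEIF2B4 from -0.14 to 0.0026 (LDHA). Over all alternatives 611 member values kept direction and side of the threshold, 41 changed sign, 17 newly passed it and 3 lost it. Of the values of called genes in the lists, 349 kept their call and 131 lost it, 31 of these without the replicate block. With the CDS GC trend removed 15 lost their call and 21 kept it. Depth is unknown, so no lower limit of detection can be given.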
